A study of Drosophila melanogaster with 4 samples.

Results

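The eggshell genes described here are 10 genes that somatic follicle cells transcribe in mid to late oogenesis to build the layers around the Drosophila melanogaster egg. They were taken by symbol from a list and found in the Ensembl annotation of the dm6 genome, 10 of 13968 protein-coding genes on the main chromosome arms. Of these, 9 carry the listed symbol there, and dec-1 is annotated as dec. H3K4me3, a methyl mark on histone H3, had been profiled by chromatin immunoprecipitation and sequencing in whole ovaries, with 2 libraries per group. Control females carried MTD-Gal4, a driver active in female germ cells, with no target (MTD-Gal4>+). In lid KD females MTD-Gal4 drove a hairpin directed at lid (MTD-Gal4>shRNA lid), the gene of the H3K4me3 demethylase Lid/KDM5. The females of both groups are given as 3 days old in 1 label and as virgins 0 to 1 days old in another, and each library pooled dissected ovaries. The study's methods for the immunoprecipitation give an age of 2 days, so the age is not settled. The driver is not active in follicle cells, and whole ovaries hold germ cells and follicle cells together.

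H3K4me3 lies over the first nucleosomes downstream of the start sites of transcribed genes. The eggshell has an inner vitelline membrane, made from proteins such as those of Vm26Aa, Vm32E and Vm34Ca, and an outer chorion, made from the proteins of the Cp genes. The product of dec-1 is cleaved and helps the eggshell to assemble. The main chorion genes sit in 2 clusters, one on 3L with Cp18, Cp15, Cp19 and Cp16 and one on X with Cp36 and Cp38, and follicle cells copy both clusters many times before the genes are transcribed. Short promoters drive this burst of expression, and the hexamer TCACGT is a known element of chorion promoters.

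The 120 bases before the start site are shown for the 6 chorion genes and for 2 vitelline membrane genes, because TCACGT followed by TATAAA recurs in 6 of these 8, at 29 to 48 bases in 5 of them, and because the peaks described below lie mostly on the other side of the start site. Sequences were read from the dm6 genome on the strand of the gene, 5′ to 3′, and TCACGT and TATAAA are in capitals.
Cp15 (chr3L:8728361-8728480, plus strand): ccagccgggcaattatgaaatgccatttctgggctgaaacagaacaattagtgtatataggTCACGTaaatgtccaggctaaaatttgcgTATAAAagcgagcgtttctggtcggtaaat
Cp16 (chr3L:8731824-8731943, plus strand): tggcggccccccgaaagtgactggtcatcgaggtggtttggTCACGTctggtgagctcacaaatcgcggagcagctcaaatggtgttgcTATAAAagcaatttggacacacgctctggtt
Cp18 (chr3L:8726671-8726790, plus strand): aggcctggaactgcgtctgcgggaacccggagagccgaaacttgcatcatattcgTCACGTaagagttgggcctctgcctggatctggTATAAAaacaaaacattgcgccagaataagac
Cp19 (chr3L:8729745-8729864, plus strand): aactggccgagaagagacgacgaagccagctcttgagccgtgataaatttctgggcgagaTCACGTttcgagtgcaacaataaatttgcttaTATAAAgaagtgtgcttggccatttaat
Cp36 (chrX:8479199-8479318, plus strand): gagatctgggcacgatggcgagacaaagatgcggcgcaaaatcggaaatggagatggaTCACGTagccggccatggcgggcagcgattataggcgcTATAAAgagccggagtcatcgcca
Cp38 (chrX:8481717-8481836, plus strand): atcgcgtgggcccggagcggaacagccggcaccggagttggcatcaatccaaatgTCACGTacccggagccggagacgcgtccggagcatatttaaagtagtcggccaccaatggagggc
Vm34Ca (chr2L:13411632-13411751, minus strand): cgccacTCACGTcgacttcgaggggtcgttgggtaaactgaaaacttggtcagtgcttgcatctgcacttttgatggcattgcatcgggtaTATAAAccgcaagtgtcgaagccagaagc
Vm26Aa (chr2L:5960341-5960460, minus strand): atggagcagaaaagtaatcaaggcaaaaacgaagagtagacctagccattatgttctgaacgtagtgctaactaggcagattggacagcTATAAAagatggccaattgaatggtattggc
The hexamer TCACGT was present within 250 bases before the start site of 7 of the 10 genes, in each case on the strand of the gene, and on either strand in 5.17% of 13968 protein-coding promoters of the same length. Counted from the start site, its first base was at -59 in Cp15, -79 in Cp16, -65 in Cp18, -60 in Cp19, -62 in Cp36 and -65 in Cp38. In Vm34Ca it was farther away, at -114. TATAAA, the letters of a TATA box, began at -30 in Cp15, -31 in Cp16, -32 in Cp18, -28 in Cp19, -24 in Cp36, -31 in Vm26Aa and -29 in Vm34Ca. It was found on either strand in 43.0% of all promoters and in 7 of these 10, and Cp38, Vm32E and dec-1 had none in that window. From the hexamer to TATAAA the distance was 29 to 48 bases in the 5 chorion genes with both, and 85 in Vm34Ca. TATCGATA, the DNA replication-related element of many housekeeping promoters, was found before none of the 10 and in 7.99% of all promoters, and TCAGT was found before 1 of the 10 and in 38.8%. A match to these letters is a description of the sequence only.

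Peaks had been called in each library on its own. The lists were 12087 (control replicate 1), 25302 (control replicate 2), 12832 (lid KD replicate 1) and 13501 (lid KD replicate 2) peaks long, and groups of 4 values are given in this order. The genome background was 60.1, 48.4, 55.5 and 56.6 fragments per base, the only depth that the lists give. The lid KD libraries differed from each other by 0.994 counting errors (a robust SD over 8864 regions called in all 4). That is no more than sampling noise, against 2.26 for the controls. The study's methods give 2 biological replicates per genotype, but whether the lid KD libraries are independent samples is in doubt. Their values are given side by side, tests and counts over 4 libraries treat them as 2, and the counts of ranks are also given with them averaged as 1 sample. Replicates are separate libraries in the labels, and p-values measure only the spread between libraries. With 2 libraries against 2, an exact permutation test cannot go below p = 0.33, and neither can 1 lid KD sample against 2 controls. Genes of both cell types were called: 9 of 10 follicle cell regulators and 6 of 8 germ cell genes had a promoter peak in all 4 libraries, against 2 of 59 odorant receptor genes.

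Every one of the 10 eggshell genes had an H3K4me3 peak within 500 bases of its start site in all 4 libraries, where 48.2% of all protein-coding genes did. The peaks were weak. Fold enrichment, the number of fragments at the summit over the background the peak caller expected there, lay between 1.65 and 3.81 over the 40 values, and in every library all 10 genes were below the median of the 6735 genes called in all 4, which was 5.37, 6.76, 6.20 and 6.08. The medians of the 10 eggshell genes were 2.25, 2.97, 2.59 and 2.56. The 2 odorant receptor genes called in all 4 libraries were Or45b (1.69, 2.61, 1.63 and 1.91) and Or7a (1.59, 2.39, 1.87 and 1.87). Over the 4 libraries the range of Or45b overlapped that of each of the 10 eggshell genes. Compared within each library, the eggshell genes were above both odorant receptor genes, with these exceptions. They were Vm32E in both lid KD libraries, Vm26Aa in control replicate 2, and dec-1 in control replicate 1 and lid KD replicate 2. Summits of the 10 eggshell genes were covered by 100 to 842 fragments, for which the counting error is 10.0% to 3.45%. In libraries of whole ovaries, fewer follicle cells and less mark per follicle cell cannot be told apart.

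**Figure D1:**
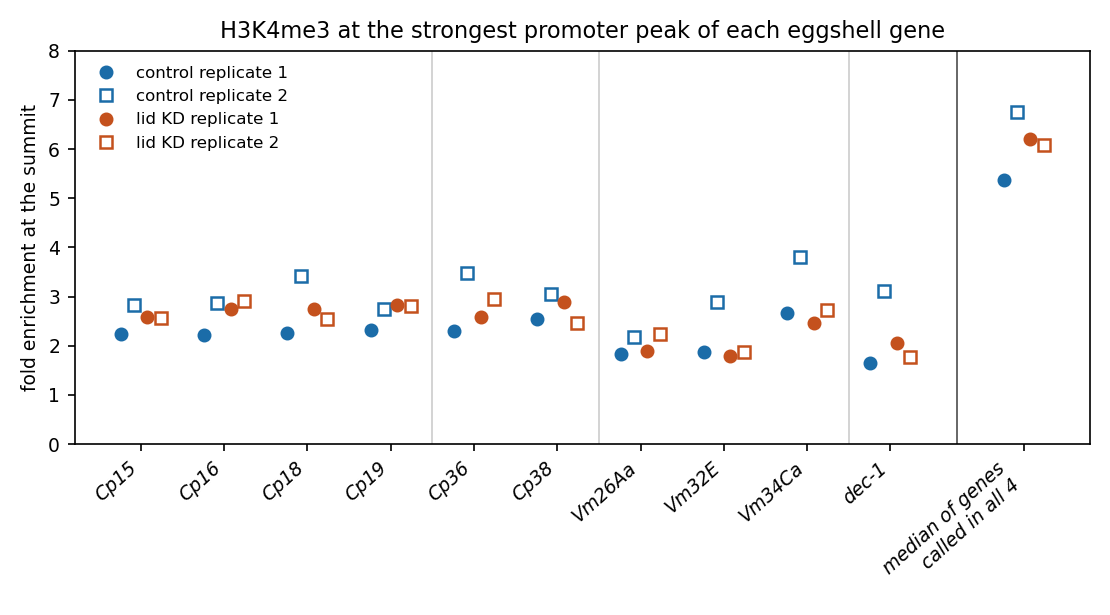
Fold enrichment at the summit of the strongest peak within 500 bases of the start site (y axis, ratio with no unit) for the 10 eggshell genes in each library. Blue is control, orange lid KD, circles are replicate 1 and squares replicate 2, and the last column gives the median of 6735 genes. The genes lie between 1.65 and 3.81, and control replicate 2 is the highest library at 7 of the 10.

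Among the chorion genes of 3L, which encode structural proteins of the shell, Cp15 had a fold enrichment of 2.23 and 2.83 under control against 2.59 and 2.56 under lid KD. Cp16 had 2.22 and 2.86 under control against 2.76 and 2.91 under lid KD. Cp18 had 2.26 and 3.41 under control against 2.75 and 2.55 under lid KD. At these genes the control libraries spanned a wider range than the lid KD libraries, and the groups overlapped. Cp19 had 2.33 and 2.75 under control against 2.84 and 2.81 under lid KD, so that both lid KD libraries were above both controls by a small margin (exact permutation test over 4 libraries, two-sided, p = 0.33, the smallest possible).

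On X, Cp36 had a fold enrichment of 2.30 and 3.49 under control against 2.58 and 2.95 under lid KD. Cp38 had 2.55 and 3.05 under control against 2.88 and 2.46 under lid KD. Both lid KD values of Cp36 lay between its controls, and 1 lid KD library of Cp38 lay below them. Among the vitelline membrane genes, Vm34Ca had the highest values, 2.67 and 3.81 under control against 2.46 and 2.72 under lid KD. Vm32E had 1.87 and 2.90 under control against 1.79 and 1.87 under lid KD. Vm26Aa had 1.83 and 2.18 under control against 1.89 and 2.24 under lid KD. At Vm32E and Vm34Ca control replicate 2 stood above the other 3 libraries, and at Vm26Aa the groups were interleaved. dec-1 had the widest spread, with 1.65 and 3.11 under control against 2.05 and 1.77 under lid KD.

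The germline knockdown was compared with the control at these genes to see whether the mark moved in cells in which the hairpin is not made. The median log2 ratio of fold enrichment, lid KD over control, was -0.05 over the 10 eggshell genes and 0.03 over the 6735 genes called in all 4 (exact permutation test of the median over 4 libraries, two-sided, p = 1). Single genes ranged from -0.35 at Vm32E to 0.17 at Cp16. Control replicate 2 exceeded control replicate 1 at all 10 genes, by a median of 0.44 on the log2 scale, and by 0.37 over all 6735 genes, which is more than the difference between the groups. Without control replicate 2 the median became 0.21, and without control replicate 1 it became -0.27, so the sign rests on which control is used. Both lid KD libraries were above both controls at 1 of the 10 genes (Cp19), where 18.9% of all genes were, and below both at 0 of the 10, where 10.7% were.

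Ranks within lists shortened to the same 12087 strongest peaks take away a shift shared by a whole library. Ranks run to 100 for the strongest peak, and the medians of the 10 eggshell genes were 45.9 and 45.4 under control against 42.5 and 42.4 under lid KD. Vm34Ca stood at 50.8 and 56.9 under control against 40.3 and 44.8 under lid KD, and Vm32E at 36.8 and 43.6 under control against 19.4 and 22.5 under lid KD. Cp18 had ranks of 46.2 and 52.6 against 44.8 and 42.3, and Cp38 of 49.6 and 47.2 against 46.4 and 40.7. These 4 genes ranked lower in either lid KD library than in any control. That is 4 of 10, near the 40.0% of all genes with the same order, and 0 of 10 were above both controls, where 17.1% were. Taking the mean rank of both lid KD libraries as 1 sample, it was 6 of 10, where 44.7% of all genes were lower, and 1 of 10 was higher, where 19.6% were. The share depended on the measure that was ranked. Ranked by -log10 p, 7 of 10 were lower, where 30.9% of all genes were, and 0 higher, where 22.5% were. Ranked by summit pileup over the genome background, 8 of 10 were lower, where 29.1% of all genes were, and 0 higher, where 22.9% were. Ranked by fold enrichment with a gap of at least 10 points, only Vm32E remained among the 10, below the controls, where 1.38% of all genes were that far below and 1.44% that far above. Vm26Aa was not in the shortened list of control replicate 2, where its fold enrichment of 2.18 was under the lowest retained value of 2.21, and was given rank 0 there.

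By fold enrichment the order of the genes was Vm34Ca, Cp36, Cp18, Cp38, Cp16, Cp19, Cp15, dec-1, Vm32E and Vm26Aa, with means over the 4 libraries from 2.91 ± 0.61 (SD) down to 2.04 ± 0.20. The ranges of every 2 neighbours in this order overlapped. The 3 genes whose 4 ranks were nearest to those of Vm34Ca, the eggshell gene with the highest mean rank, were odd at a Euclidean distance of 2.07 rank points over the 4 libraries, CG17292 at 3.09 and Doc1 at 3.50.

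The order was another when fragments at the summit were divided by the genome background of the library in place of the local one. The 4 chorion genes of 3L then led with 9.22 to 17.4 times the genome background over all libraries. Cp36 and Cp38 followed with 3.78 to 6.51 times. Vm26Aa, Vm32E and Vm34Ca had 1.80 to 3.87 times and dec-1 had 1.66 to 3.16 times. Cp15, the lowest of the 3L genes, was above Cp36 in 4 of 4 libraries and their ranges did not overlap, and the same held for Cp38 over Vm34Ca. Within each of these groups neighbouring genes overlapped. Both lid KD libraries were below both controls at 1 of the 10 genes, Cp18, where 1.83% of all genes were, and above both at 0 of the 10, where 38.2% were. The median of the 6735 genes was 16.0, 22.9, 24.1 and 23.1 times the genome background, so Cp18 with 11.3, 17.4, 10.7 and 11.1 times, and Cp19 with 11.2, 15.8, 11.3 and 12.6 times, remained below it.

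**Figure D2:**
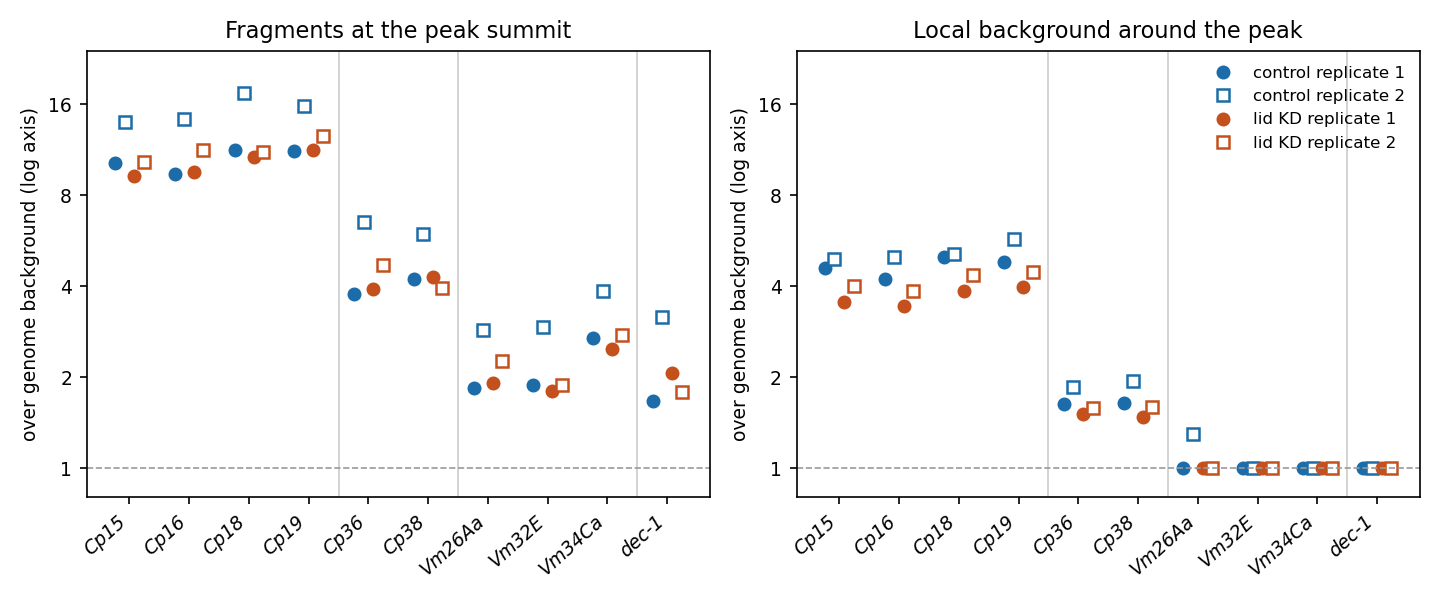
Fragments at the summit (left) and the local background around the same peak (right), each over the genome background of the library (log axes, ratio with no unit), for the 10 eggshell genes in each library. The 4 genes of the 3L cluster lie at 9.22 to 17.4 (left) and 3.44 to 5.72 (right), and at the 6 chorion genes both lid KD points of the right panel lie below both control points.

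Among the 10 genes, the local background separates the chorion genes from the vitelline membrane genes and dec-1. It is the coverage that the peak caller expected at a peak. Whether it came from an input library or from the immunoprecipitated library itself is not stated, so whether it includes fragments of nearby peaks is not known. At Cp15 it was 4.59 and 4.92 times the genome background under control against 3.54 and 4.01 times under lid KD. At Cp16 it was 4.21 and 4.97 times under control against 3.44 and 3.86 times under lid KD. At Cp18 it was 4.99 and 5.09 times under control against 3.86 and 4.34 times under lid KD. Cp19 had the highest values, 4.80 and 5.72 times under control against 3.97 and 4.46 times under lid KD. In all 4 genes both lid KD libraries were below both controls, but the genes lie within 1 neighbourhood and are not independent.

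On X the local background was lower, and again split by group. The median of the 6735 genes called in all 4 libraries was 2.71, 2.92, 3.39 and 3.31 times the genome background. In each library the 3L chorion genes were above that median, and Cp36 and Cp38 were below it. At Cp36 it was 1.63 and 1.85 times the genome background under control against 1.51 and 1.58 times under lid KD. At Cp38 it was 1.64 and 1.94 times under control against 1.48 and 1.60 times under lid KD. The vitelline membrane genes and dec-1 were at the genome background in all libraries except Vm26Aa in control replicate 2, at 1.30 times. By a margin of at least 0.01, the 6 chorion genes thus had a lower local background in both lid KD libraries than in both controls, where 1.87% of the 6735 genes did and 65.4% were higher in both lid KD libraries. Their log2 ratios, lid KD over control, ran from -0.33 to -0.17, while the median of all genes was 0.23, and 2.41% of all genes had a ratio at or below the highest of the 6. The 6 genes lie in 2 clusters, so they are not 6 independent cases beside these shares. The median over the 6 genes was 4.40 and 4.95 times under control against 3.49 and 3.94 times under lid KD (exact permutation test over 4 libraries, two-sided, p = 0.33, the smallest possible). That median reflects the 3L genes and lies above both genes on X in each library. All 6 genes kept the order of lid KD below control when the background was taken in fragments with no division. At Cp36 this was nearly a tie, with 98.3 and 89.6 fragments under control against 83.8 and 89.4 under lid KD. Leaving out 1 library cannot break such an order, so it is no check.

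Other genes of the same stretches, chosen after their values were seen, did not all share it. Within 20 kb of Cp18, 9 genes had a promoter peak in all 4 libraries and 6 of them had the lower background in lid KD, the 4 chorion genes, Prm and CG43965. For Prm this rests on which peak was taken. Control replicate 2 gave 2.00 times at a peak 13.2 kb from the Cp18 start site, where the other libraries used peaks at 18.2 to 18.6 kb. At 18.6 kb control replicate 2 had 1.00 times, not above lid KD with 1.00 and 1.03 times. SrpRbeta had 5.74 and 5.33 times the genome background in the controls against 5.77 and 5.77 times in lid KD. CG32022 and CG6511, which share 1 peak, had 6.26 and 5.68 times against 6.05 and 6.12 times. Within 20 kb of Cp38, 2 of 7 such genes had it, Cp36 and Cp38. The chorion genes Cp7Fb, with 1.55 and 1.70 times against 1.55 and 1.87 times, and Cp7Fc, with 1.74 and 2.21 times against 1.88 and 2.00 times, did not.

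The raised background was highest within 10 kb on 3L. Of all peaks within 10 kb of the Cp18 start site, 11 or 12 per library, the median local background was 4.99 and 5.33 times the genome background under control against 3.92 and 4.41 times under lid KD. At 10 to 20 kb it was 1.57 and 1.38 times under control against 1.23 and 1.42 times under lid KD. At 20 to 40 kb it was 1.05, 1.00, 1.00 and 1.00 times, and at 40 to 60 kb it was 1.43, 1.00, 1.22 and 1.00 times over 5, 12, 6 and 8 peaks. The weakest summit within 10 kb had 5.94, 7.44, 5.49 and 6.06 times the genome background, where the weakest summit of each whole list had 1.34 to 1.37 times. Around Cp38 the median was 1.74, 1.70, 1.50 and 1.59 times within 10 kb. It was 1.43, 1.62, 1.32 and 1.42 times at 10 to 20 kb and 1.00 times in each library at 20 to 40 kb. Single peaks at 20 to 40 kb had up to 2.65, 3.31, 3.40 and 3.36 times. Those within 10 kb had up to 2.01, 2.21, 1.88 and 2.00 times, so the background on X was not highest at the chorion genes.

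**Figure D3:**
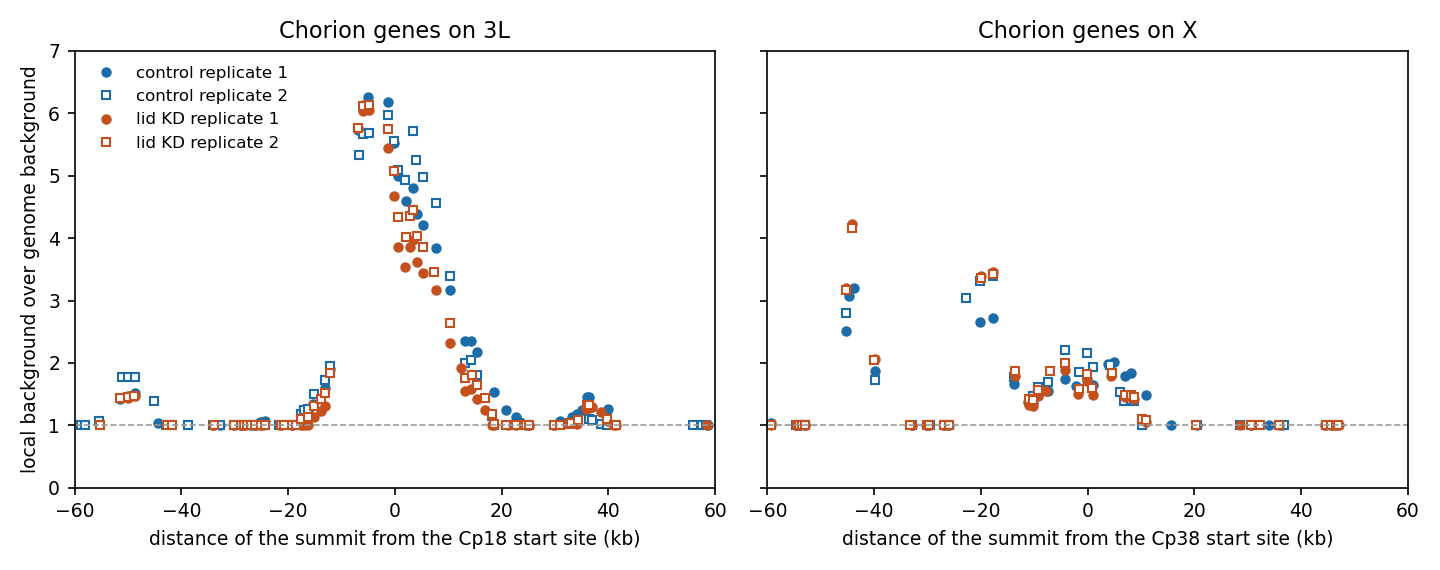
Local background over genome background (y axis, ratio with no unit) of every called peak within 60 kb of the start site of Cp18 on 3L (left) and of Cp38 on X (right), by the distance of its summit (x axis, kb). On 3L the median within 10 kb is 3.92 to 5.33 and 1.00 to 1.05 at 20 to 40 kb. Single peaks are higher farther out. On X the median is 1.50 to 1.74 within 10 kb, and single peaks at 20 to 40 kb reach 2.65 to 3.40.

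A high local background was not particular to the cluster. In control replicates 1 and 2, 7.70% and 4.52% of all peaks had at least the local background of the lowest 3L chorion gene of that library, and in lid KD 27.7% and 21.1% did. Those peaks were stronger, with a median fold enrichment of 3.50, 4.51, 4.45 and 4.25, and 14.2%, 25.8%, 21.0% and 22.2% of them had a fold enrichment no higher than the strongest of the 4 genes. The peak with the highest summit pileup within 10 kb of Cp18 lay over the promoter of CG32022 and CG6511 with 23.3, 35.2, 32.6 and 31.6 times the genome background. On X a peak at the promoters of CG33181 and of otu, a germ cell gene, had 9.78, 14.0, 13.7 and 13.8 times. Its summit lay 8.1 kb from the Cp38 start site. The part of DNA copy number and of these neighbours in the local background was not tested.

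The strongest peak of each of the 10 genes had its summit inside the gene, but the distance from the start site varied. All 40 summits lay downstream of the start site, at 132 to 1080 bases, and all 40 lay in the coding sequence of the gene. Of the 6735 genes called in all 4 libraries, 47.7% to 51.8% had the summit of their strongest promoter peak in coding sequence, at a median of 191, 212, 255 and 253 bases downstream. In Cp16 the summits lay at 132, 175, 158 and 138 bases, and in Cp19 at 266, 280, 268 and 273 bases. Cp15, Cp18, Cp19, Cp36 and Cp38 have an intron after a short first coding exon. The Cp18 summits lay at 575, 564, 544 and 566 bases and the Cp38 summits at 1051, 1080, 1076 and 931 bases, both in the long second exon. In Cp36 the summit was at 331 bases in control replicate 1 and at 831, 815 and 858 bases in the other 3 libraries, within peaks of nearly the same extent.

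**Figure D4:**
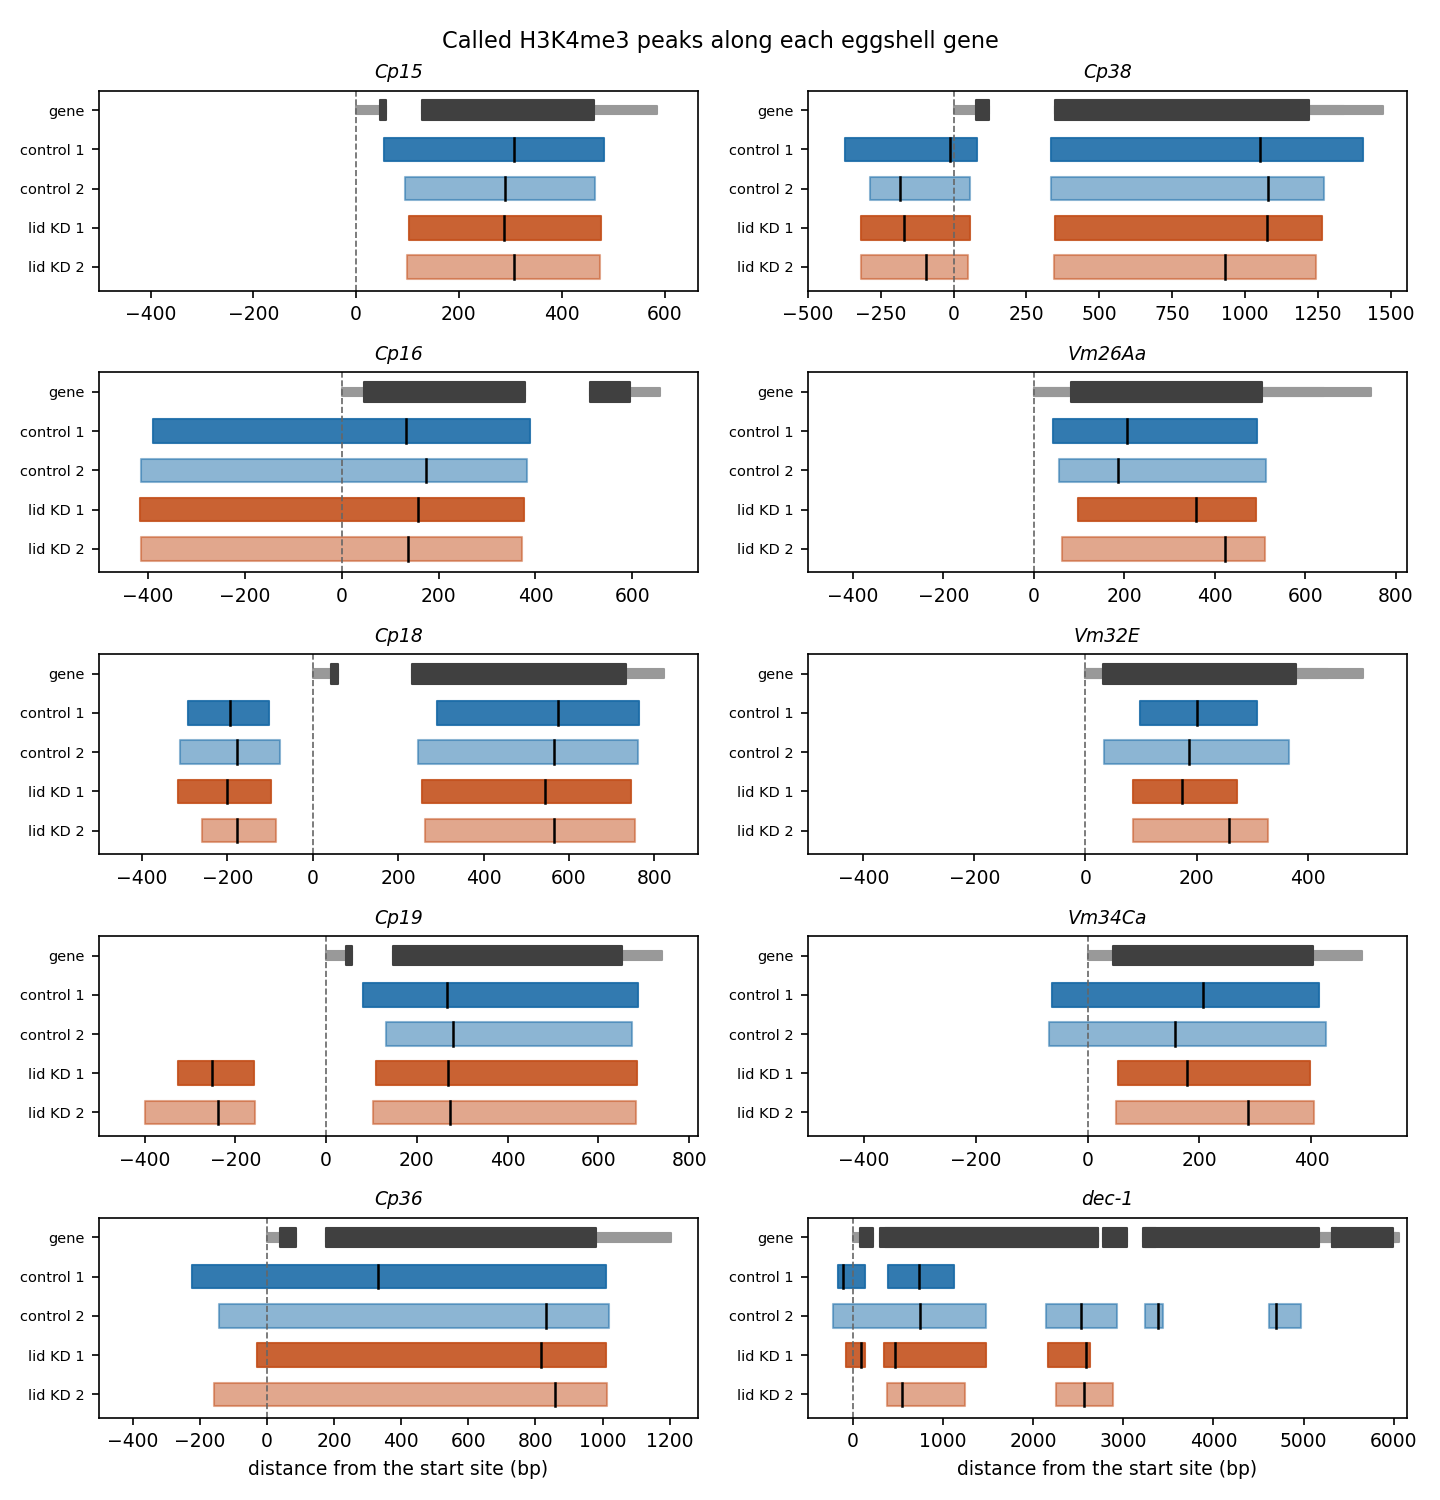
Called peaks along the 10 eggshell genes (x axis, distance from the start site in bp), with exons in grey, coding sequence in black, and the summit of each peak as a black tick. Peaks overlap the main coding exon in every library, and Cp18 and Cp38 also have a separate peak at or before the start site.

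A second, weaker peak lay at or before the start site of some genes. In Cp18 its summit was at -193, -177, -200 and -177, with a fold enrichment of 1.27, 1.96, 1.57 and 1.55. In Cp38 it was at -11, -182, -171 and -95, with a fold enrichment of 1.82, 1.88, 1.72 and 1.88. Both were called in all 4 libraries and had less enrichment than the exon peak of the same gene in each. In Cp19 such a peak was called in the lid KD libraries alone, at -251 and -238, with a fold enrichment of 1.82 and 1.61, and whether weaker signal was present in the controls cannot be read from a list of called peaks. In dec-1 a separate peak over the start site was called in control replicate 1, with its summit at -108 and a fold enrichment of 1.57, and in lid KD replicate 1, at 90 bases downstream and 1.43. dec-1, the longest gene at 6062 bases, had 2, 4, 3 and 2 peaks over its body, and these covered 14.4%, 46.5%, 28.6% and 24.7% of it, most in the library with the longest list. In the other 9 genes peaks covered 37.5% to 86.8% of the gene.

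The peaks were rich in G and C. The strongest peak had a GC content of 54.4% to 68.4% over the 40 values, with medians of 61.0%, 61.5%, 62.4% and 61.3% per library, against 50.7%, 52.5%, 52.0% and 51.9% over the 6735 genes, and all 10 genes were above that median in each library. The 250 bases before the start site had 40.0% in Vm32E, 41.6% in Cp15, 42.8% in Vm34Ca and 43.6% in Vm26Aa, and up to 58.8% in Cp38. The coding sequence at the summit is shown for 3 genes as called in control replicate 2, 90 bases each, to give the composition under the peaks. It had a GC content of 72.2% in Cp18, 66.7% in Cp36 and 68.9% in Vm34Ca, and no letters are marked.
Cp18 (chr3L:8727310-8727399, plus strand): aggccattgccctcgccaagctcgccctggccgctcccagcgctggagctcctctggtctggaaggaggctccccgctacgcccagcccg
Cp36 (chrX:8480105-8480194, plus strand): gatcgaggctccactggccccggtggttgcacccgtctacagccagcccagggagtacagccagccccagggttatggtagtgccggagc
Vm34Ca (chr2L:13411429-13411518, minus strand): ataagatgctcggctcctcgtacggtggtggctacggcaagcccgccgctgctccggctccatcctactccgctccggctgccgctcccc
The part of base composition in the number of fragments was not tested.

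Some of the peaks can be assigned to more than 1 gene. The Vm32E peak also lies within 500 bases of a start site of Ca-beta, a gene for a calcium channel subunit that overlaps Vm32E on the same strand, and Cp36 and Cp38 lie inside CG33223, which is on the other strand. dec-1 overlaps the antisense RNA gene asRNA:CR43615. The genes lie at chr3L:8726791-8727613 (Cp18), chr3L:8728481-8729066 (Cp15), chr3L:8729865-8730604 (Cp19), chr3L:8731944-8732599 (Cp16), chrX:8479319-8480523 (Cp36), chrX:8481837-8483311 (Cp38), chr2L:5959596-5960340 (Vm26Aa), chr2L:11171167-11171665 (Vm32E), chr2L:13411141-13411631 (Vm34Ca) and chrX:7867161-7873222 (dec-1).

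A further 13 eggshell genes were listed by function, not by how they moved. Of these, 6 had a promoter peak in all 4 libraries, a share near the 48.2% of all genes, and 2, Femcoat and ndl, had none in any. Vm26Ab, a major vitelline membrane gene, had a fold enrichment of 2.47 and 4.15 under control against 2.53 and 2.74 under lid KD. psd, needed for the vitelline membrane, had 2.36 and 3.20 under control against 3.56 and 3.09 under lid KD. Vm26Ac, Cp7Fb and yellow-g were also called in all 4, and the groups overlapped at each of these 5. At Cp7Fc, a chorion gene of the X cluster, both lid KD libraries (3.13 and 3.28) were above both controls (2.25 and 2.72), and none of the 6 was below. Over all genes 18.9% were above and 10.7% below, so these counts are near the background. Vml was called in the controls alone (1.50 and 2.37), yellow-g2 in all but lid KD replicate 1, Cp7Fa in all but control replicate 2, Fcp3C in control replicate 2 alone and Pxt in control replicate 1 alone. Over the genes called, medians were 2.02, 2.72, 2.53 and 2.31, close to those of the 10 genes and below those of all genes called in all 4.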

How the data were processed

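H3K4me3 was profiled in 2 control and 2 lid KD ovary libraries, grouped by the sample titles. Per the labels and the study's methods, the authors aligned paired-end reads to dm6 with Bowtie2 2.3.3, removed duplicates with Picard 2.17.10, kept uniquely aligned reads, and called peaks per library with MACS2 2.1.1 at q of 0.1. An input is not given in the sources used here, so what the local background holds is not known. The deposited lists give fold enrichment (a ratio), -log10 p and -log10 q per summit, and a deposited score column that was not used. Summit pileup and background were solved from the authors' fold enrichment, (pileup + 1)/(background + 1), and their Poisson -log10 p. At least 99.9% of peaks per library were solved, and 7 to 10 per library were left out. The solver was tested on simulated data.

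Each gene took its peak of highest fold enrichment overlapping 500 bp on either side of an annotated start site (Ensembl release 115). Groups were compared by non-overlap and exact permutation over libraries. The members, lists and motifs were chosen with earlier results of these data known. Named beside the 10 genes were other eggshell genes with a promoter peak, genes sharing a peak, the 3 genes with the nearest ranks, and the highest and lowest of each marker list. The other follicle cell regulators called in all 4 libraries were also named. Alternatives were other windows, peak measures, list lengths, q of 0.01, and each library left out. Python 3 with numpy, pandas and scipy was used. Depth is known only through the genome background, and counting errors cover sampling of fragments only.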

Additional observations from a re-analysis of the deposited data

How the results depend on the processing

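The promoter peak was called in all 4 libraries for 8 to 10 of the 10 genes under every window, list and q setting tried, the lowest when the summit itself had to lie within 500 bp, which lost Cp36 and dec-1. The median log2 ratio of fold enrichment was -0.27 to 0.21 with 1 library left out, turning positive only without control replicate 2, and -0.05 with the replicate block, whose smallest p is 0.5. It was -0.24 by -log10 p and -0.27 by summit pileup over the genome background. Replicate numbers were not taken to pair libraries, since the correlation across genes of their deviations was -0.05 and nothing in the labels ties them. Genes with both lid KD ranks below both controls were 7 of 10 when ranked by -log10 p, 8 by summit pileup over the genome background, 1 with a margin of 10 points, 5 to 6 with 1 library left out, and 6 with the lid KD libraries averaged, against 4; the shares of all genes stand in the report. Genes above both controls were 0 to 4 with 1 library left out and 1 with the lid KD libraries averaged. The last setting was chosen after seeing the data, as were the alternatives for the count of chorion genes with a lower local background. That count stayed at 6 of 6 with the background in fragments, with Cp36 nearly tied (89.6 in control replicate 2, 89.4 in lid KD replicate 2). Leaving out or averaging libraries could not have changed that count. The local background of these genes had a median of 4.68 times the genome background in control and 3.71 in lid KD. Over all peaks within 10 kb of a chorion gene it was 2.27 and 1.95. With 2 libraries per group, the exact permutation test over libraries cannot go below p = 0.33; no model pooling the spread over peaks was fitted to these lists.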

Other observations

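Other ovarian genes gave a setting for the weak eggshell peaks. Of 10 regulators of follicle cells, 9 had a promoter peak in all 4 libraries, with a median fold enrichment of 4.16, 5.36, 5.20 and 5.00. EcR, the ecdysone receptor, had 6.28 and 6.56 under control against 8.95 and 8.63 under lid KD, and peb, a zinc finger gene, was called in control replicate 1 alone, at 1.95. Regulators of the cells that make the eggshell thus had higher medians than the eggshell genes in each library. This did not hold for every regulator. tj, mirr, ct, EcR, usp and ttk were above all 10 eggshell genes in each library. Fas3, with 2.29 and 2.82 under control against 2.55 and 2.36 under lid KD, lay within their range. So did br, with 2.46 and 2.86 against 2.73 and 2.40, and slbo, with 1.75 and 2.65 against 1.89 and 1.96. In whole ovaries the cell type that gave these peaks is not known. The yolk protein genes, also transcribed in follicle cells, were low: Yp2 had 1.98 and 2.45 under control and 2.01 in lid KD replicate 2, and Yp3 was called in control replicate 2 alone, at 1.36. Among 8 germ cell genes, 6 were called in all 4, and of the others vas was called in none and aub in lid KD alone, at 1.98 and 2.21. There otu, the neighbour of Cp38, had 5.30 and 9.82 under control against 9.31 and 9.19 under lid KD, at a peak shared with CG33181. For bam the values were 1.35 and 2.07 against 2.37 and 2.34. Of 59 odorant receptor genes, 2 were called in all 4 and 45 in none.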
